A study of Homo sapiens with 6 samples.

Results

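Control and ERCC6L2-/- U2OS cells were compared by sequencing of nascent DNA, and the peaks described here are the widest of both lists, those of 3 kb or more. U2OS is a human osteosarcoma cell line, and ERCC6L2 is a SNF2-family ATPase. Per the authors' methods, knockout lines were made with Cas9 and 2 guide RNAs, and clones were grown from single cells. Several U2OS clones are listed, and which of them was sequenced is not given in the sources used here. The genotype and the history of a clone therefore cannot be told apart. Both groups, control (called WT in the labels) and ERCC6L2-/-, had 3 samples and received the same 2 h pulse of BrdU, which replicating cells take up in place of thymidine, so that their new DNA can be immunoprecipitated. Each list is a consensus of regions enriched in reads over the 3 samples of 1 genotype. It gives a start, an end and a score for each peak but no value per sample, so no test over samples was possible, and the shares below carry 95% Wilson intervals that cover counting error only. Of 18840 peaks in the lists, 870 were at least 3000 bases wide. The control list held 431 of its 10285 peaks (4.19%, 95% interval 3.82 to 4.60%) and the ERCC6L2-/- list 439 of its 8555 (5.13%, 4.68 to 5.62%). The peaks were selected on width, the end minus the start in the list, so their widths are a description.

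Human centromeres are built on alpha-satellite, a tandem repeat whose monomers are ordered into longer, higher-order units. Many monomers carry the CENP-B box, the short motif bound by the centromere protein CENP-B. Next to the centromeres of several chromosomes lie the pericentromeric satellites 2 and 3, which descend from the 5-base word GGAAT. Satellite 3 keeps long rows of that word, whereas satellite 2 is a more diverged form of it with longer units. Minisatellites are tandem arrays of units shorter than an alpha-satellite monomer, found in introns and towards chromosome ends. Reads from such arrays often align equally well to several copies, and the alpha-satellite arrays of hg38 are modelled sequences, so the position of a peak inside an array is uncertain.

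Sequences under these peaks show the classes into which they fell. Satellites 2 and 3 are given first, each from the middle of the widest control peak of its class on the chromosome named, on the strand that holds GGAAT, with this word in capitals.
Satellite 3, chr4:49121142-49121261, minus strand: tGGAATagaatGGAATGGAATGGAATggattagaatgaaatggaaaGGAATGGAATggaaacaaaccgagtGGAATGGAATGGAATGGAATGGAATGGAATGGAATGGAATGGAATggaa
Satellite 3, chr10:41894564-41894683, plus strand: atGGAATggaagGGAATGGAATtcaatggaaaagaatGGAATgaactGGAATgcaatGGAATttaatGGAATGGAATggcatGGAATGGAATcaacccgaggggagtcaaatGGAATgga
Satellite 3, chrY:10834993-10835112, minus strand: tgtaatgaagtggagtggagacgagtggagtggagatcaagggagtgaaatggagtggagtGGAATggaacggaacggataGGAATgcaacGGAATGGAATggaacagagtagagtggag
Satellite 2, chr16:36183864-36184013, minus strand: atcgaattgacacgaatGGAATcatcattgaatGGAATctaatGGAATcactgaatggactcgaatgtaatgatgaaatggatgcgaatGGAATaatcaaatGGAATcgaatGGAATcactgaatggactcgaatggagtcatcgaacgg
Satellite 2, chr7:61042168-61042317, plus strand: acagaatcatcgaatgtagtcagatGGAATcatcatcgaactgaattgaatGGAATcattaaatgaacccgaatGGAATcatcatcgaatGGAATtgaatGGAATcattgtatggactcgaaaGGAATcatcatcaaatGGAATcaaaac
The word made up 62.5% of the stretch from chromosome 4, which ends in a row of 9 words, and was less frequent in the stretch from chromosome Y. In satellite 2 it recurred singly, at intervals.

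Alpha-satellite is shown at 1 monomer length around the CENP-B box nearest the middle of the peak, with the box in capitals. The peaks are those in which the lists differed most.
Wide in control and narrowest in ERCC6L2-/-, chr12:35572282-35572452, plus strand: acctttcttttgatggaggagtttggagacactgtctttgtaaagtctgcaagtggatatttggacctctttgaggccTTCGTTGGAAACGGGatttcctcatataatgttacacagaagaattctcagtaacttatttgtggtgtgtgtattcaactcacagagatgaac
Widest in control alone, chr12:35367969-35368139, plus strand: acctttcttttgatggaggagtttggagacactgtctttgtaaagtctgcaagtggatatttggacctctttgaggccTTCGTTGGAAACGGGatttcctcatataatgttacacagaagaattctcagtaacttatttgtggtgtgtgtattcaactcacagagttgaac
Most widened in ERCC6L2-/-, chr12:36887287-36887457, plus strand: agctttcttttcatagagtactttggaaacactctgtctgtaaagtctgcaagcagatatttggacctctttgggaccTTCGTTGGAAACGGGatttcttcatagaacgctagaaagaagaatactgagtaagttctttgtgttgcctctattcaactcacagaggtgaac
Widest in ERCC6L2-/- alone, chr11:52085609-52085779, plus strand: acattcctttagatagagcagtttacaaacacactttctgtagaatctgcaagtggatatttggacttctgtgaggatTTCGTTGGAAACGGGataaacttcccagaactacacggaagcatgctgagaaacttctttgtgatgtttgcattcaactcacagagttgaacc
All 4 stretches held the same 15 bases of the box, of which 9 were fixed by the search and only the rest could have differed. The first and second chromosome 12 stretches, both from peaks that were wide in control cells, were equal at 99.4% of positions, and each was equal at 83.6% of positions to the third, which comes from a peak of the same chromosome that was wide in ERCC6L2-/- cells. The fourth, from chromosome 11, was equal at 51.5% of positions to that one and at 53.8 and 54.4% to the first and second.

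Tandem units under wide peaks of both lists are shown as a pair of neighbouring units, the first in capitals, from the place in the peak where neighbouring units are most alike.
Intron of BRF1, chr14:105229952-105230155, plus strand: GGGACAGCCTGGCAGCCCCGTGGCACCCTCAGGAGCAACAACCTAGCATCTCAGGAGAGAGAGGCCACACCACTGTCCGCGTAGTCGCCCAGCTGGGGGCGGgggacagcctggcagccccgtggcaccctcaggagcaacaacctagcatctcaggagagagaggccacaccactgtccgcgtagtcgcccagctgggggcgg
Intron of ADARB2, chr10:1236656-1236703, plus strand: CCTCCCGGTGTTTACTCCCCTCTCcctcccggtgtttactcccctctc
Intron of NKD2, chr5:1022560-1022641, plus strand: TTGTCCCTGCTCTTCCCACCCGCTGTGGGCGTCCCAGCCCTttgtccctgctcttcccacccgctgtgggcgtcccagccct
Intron of TMEM242, chr6:157310738-157310805, plus strand: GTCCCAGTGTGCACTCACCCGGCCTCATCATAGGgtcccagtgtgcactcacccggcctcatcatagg
Intron of DUX4, chr4:190179255-190179390, plus strand: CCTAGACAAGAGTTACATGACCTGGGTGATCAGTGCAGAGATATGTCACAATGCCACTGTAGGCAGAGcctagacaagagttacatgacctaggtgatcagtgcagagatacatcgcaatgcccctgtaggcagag
Units of 102, 24, 41 and 34 bases were repeated without a difference at these places in BRF1, ADARB2, NKD2 and TMEM242. Neighbouring 68-base units in DUX4, a length typical of beta-satellite, were equal at 92.6% of positions at this place, but over the whole peaks identity at that distance was 44.1% in control and 44.6% in ERCC6L2-/- cells.

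The wide peaks were satellite DNA for the most part. Sequence was available for 422 control and 431 ERCC6L2-/- wide peaks on contigs of the hg38 reference. A peak was assigned to satellites 2 and 3 if at least 15% of its bases lay in GGAAT or its complement, which left few doubtful cases, because 535 of the 853 peaks had 20% or more, 305 had under 2%, and 13 lay between. By this measure 277 control peaks (65.6%, 61.0 to 70.0%) and 258 ERCC6L2-/- peaks (59.9%, 55.2 to 64.4%) were satellites 2 and 3. The same share was 14.2 and 12.5% among peaks of 2 to 3 kb, 3.58 and 4.38% among peaks of 1 to 2 kb, and 0.367 and 0.706% among peaks under 1 kb, in control and ERCC6L2-/- lists in that order. Alpha-satellite runs of the reference were touched by 83 control wide peaks (19.7%, 16.2 to 23.7%) and 112 ERCC6L2-/- wide peaks (26.0%, 22.1 to 30.3%). How runs are found moved this share by over 1.5-fold, and with runs found at 1 monomer length only it was 10.2 and 16.01%. The share in the runs used here was highest at 2 to 3 kb, with 39.2 and 52.3%, and was 18.1 and 30.1% at 1 to 2 kb and 2.84 and 6.16% under 1 kb. Peaks of 3 kb or more thus differed from those just narrower in a high share of satellites 2 and 3 and a lower share of alpha-satellite.

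**Figure D1:**
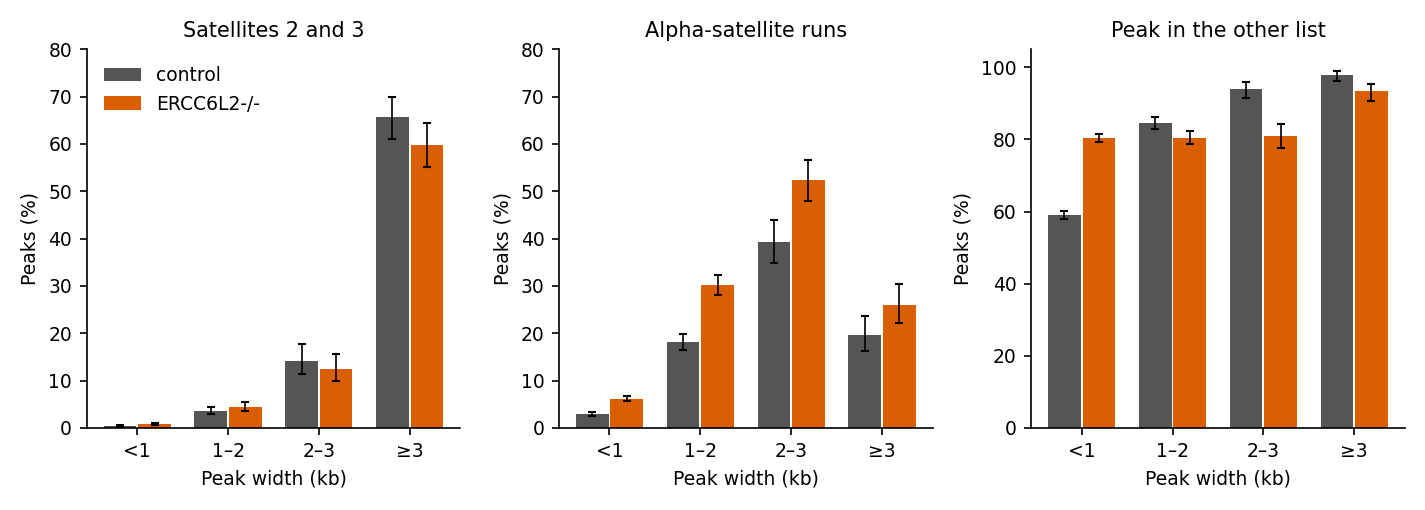
Share of peaks (%) by peak width (kb) in satellites 2 and 3, in alpha-satellite runs, and with a peak of the other list at the same place, for the control list (grey) and the ERCC6L2-/- list (orange). Bars are shares and error bars 95% Wilson intervals. Satellites 2 and 3 rose from 0.367 and 0.706% under 1 kb to 65.6 and 59.9% at 3 kb or more, while alpha-satellite was highest at 2 to 3 kb.

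In width, satellite 3 stood above the other classes. The 170 control peaks and 156 ERCC6L2-/- peaks of satellite 3 had median widths of 7398.5 and 7354 bases and covered 1937 and 1893 kb. Satellite 2 followed with 107 and 102 peaks, medians of 5036 and 4804 bases and 673 and 608 kb. Alpha-satellite gave 81 and 110 peaks, because 2 peaks in each list that touched a run had been assigned to satellite 3, with medians of 3556 and 3576 bases and 318 and 437 kb. The remaining 64 and 63 peaks, mostly minisatellites, had medians of 3426.5 and 3703 bases, and 9 and 8 wide peaks lay on contigs outside the reference. The widest peak of both lists was satellite 3 on an unlocalised contig assigned to chromosome 22, from base 47814 to 158433 in control cells (110620 bases) and from 47807 to 158536 in ERCC6L2-/- cells (110730 bases). Taken over all widths, 76.6% of control and 72.6% of ERCC6L2-/- satellite 3 peaks were wide, against 49.5 and 44.5% of satellite 2 peaks and 10.1 and 8.68% of alpha-satellite peaks.

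**Figure D2:**
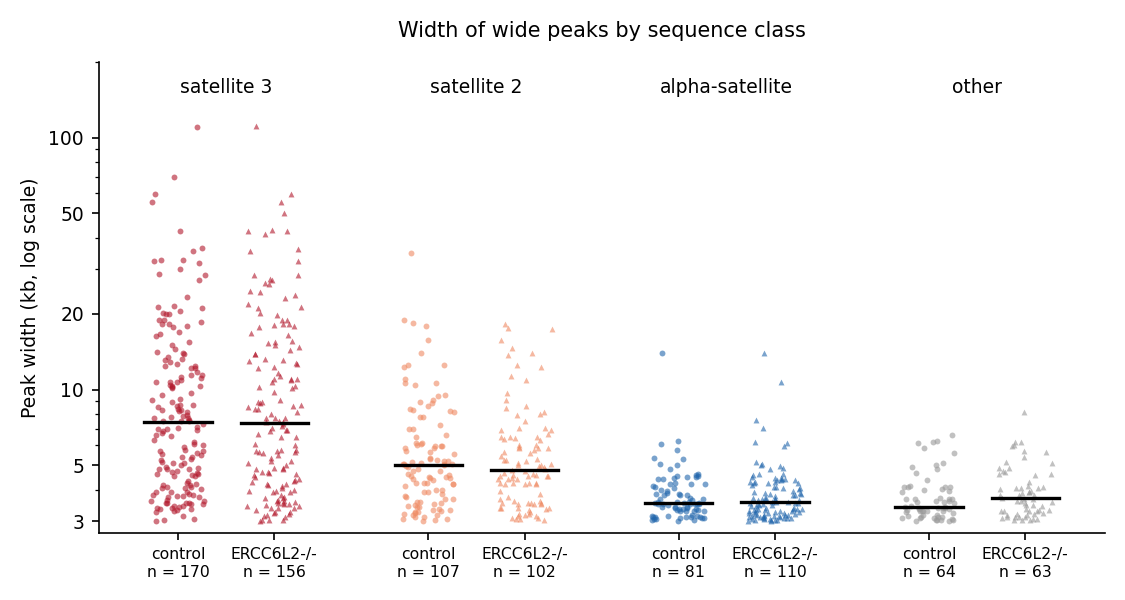
Width (kb, log scale) of every wide peak by sequence class, with control peaks as circles and ERCC6L2-/- peaks as triangles. Lines are medians. Satellite 3 reached 110620 bases in control and 110730 bases in ERCC6L2-/- cells, whereas alpha-satellite peaks had medians of 3556 and 3576 bases and reached 13927 and 13973 bases.

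The peaks also took in most of the satellite 2 and 3 sequence that the reference holds. Windows of 1 kb rich in GGAAT amount to 3.95 Mb of the reference. Control peaks of any width covered 73.1% of it and ERCC6L2-/- peaks 71.1%, and wide peaks alone covered 66.1 and 63.3%. Alpha-satellite runs amount to 73.6 Mb, of which all peaks covered 1.95% in control and 2.93% in ERCC6L2-/- cells and wide peaks 0.440 and 0.599%. The classes differed in copy number too. The median 50-base word of a satellite 3 or satellite 2 wide peak had 1 copy in the reference, and that of an alpha-satellite wide peak had 1093 copies in the control and 1093.5 in the ERCC6L2-/- list.

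Most wide peaks occurred in both genotypes. Of the 431 control wide peaks, 422 (97.9%, 96.1 to 98.9%) shared at least 1 base with an ERCC6L2-/- peak, where 67.2% of all control peaks did. Of the 439 ERCC6L2-/- wide peaks, 410 (93.4%, 90.7 to 95.4%) shared a base with a control peak, where 81.1% of all ERCC6L2-/- peaks did. A longer peak has more room for an overlap. Under a reciprocal overlap of 50% the shares were 87.5 and 85.9%. A wide peak of the other list was met by 370 control peaks (85.8%, 82.2 to 88.8%) and by 364 ERCC6L2-/- peaks (82.9%, 79.1 to 86.1%). The partner was absent for 9 control peaks, of which 4 were alpha-satellite, 3 of the remaining class, 1 satellite 2 and 1 satellite 3. It was absent for 29 ERCC6L2-/- peaks, of which 24 were alpha-satellite and 5 of the remaining class.

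To set widths side by side, overlapping peaks of both lists were joined into loci, which gave 484 loci with at least 1 wide peak. In 348 of them both lists had a wide peak, in 52 only the control peak was wide and a narrower ERCC6L2-/- peak lay there, and in 46 the reverse held. A further 9 loci had control peaks alone and 29 ERCC6L2-/- peaks alone. Over the 446 loci with peaks of both lists, the median ratio of bases covered, ERCC6L2-/- over control, was 0.999, against 0.966 over all 6872 loci with peaks of both lists. Bases covered were at least 1.5-fold higher in ERCC6L2-/- cells in 24 of the 446 loci, where 1.83% of all loci with peaks of both lists were, and at least 1.5-fold lower in 27, where 3.26% were. Since width chose the loci, nothing is read from these counts. Across the 446 loci the log10 bases covered in both lists had a Pearson correlation of 0.914 and a Spearman correlation of 0.856, a description over loci chosen for width that share the same reference sequence.

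**Figure D3:**
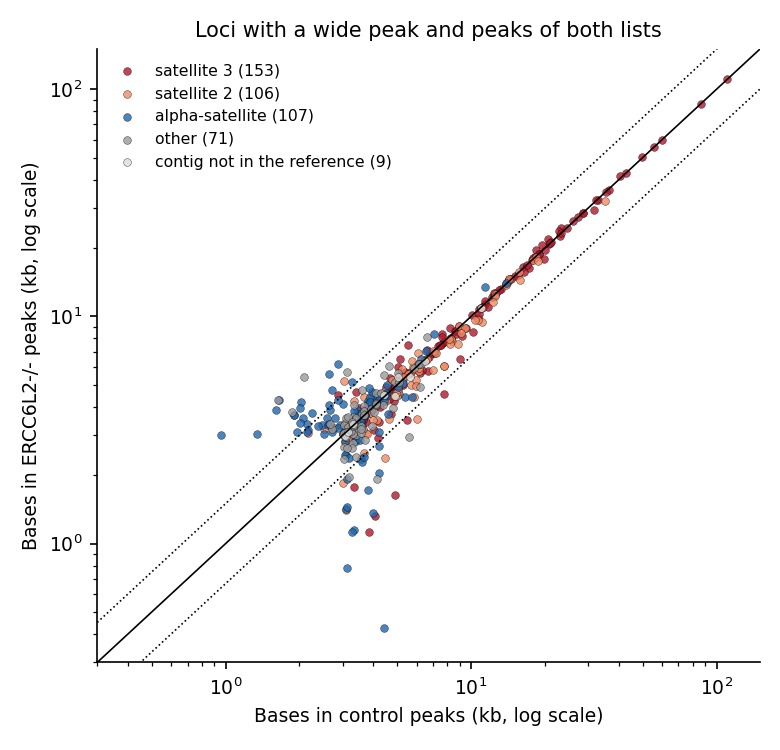
Bases covered by ERCC6L2-/- peaks against bases covered by control peaks (kb, log scales) in the 446 loci that hold a wide peak and peaks of both lists, coloured by sequence class. The solid line marks equal values and the dotted lines a 1.5-fold difference. Satellite 3 loci followed the line up to 110620 control bases, and the loci beyond 1.5-fold lay mostly near the 3 kb limit, with 18 of 24 above and 14 of 27 below it in alpha-satellite.

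Satellite 3 was the class whose peaks lined up most closely. Of its 154 loci, 145 were wide in both lists, and its median ratio was 0.999 with middle values (lower to upper quartile) from 0.977 to 1.01. Among 119 satellite 3 loci with a single wide peak in each list, the edges of the 2 peaks lay a median of 22 bases apart, and in 55 of them (46.2%) both edges agreed within 50 bases. The same median was 58.5 bases over 75 such loci of satellite 2, 53.5 over 49 of alpha-satellite and 67.5 over 48 of the remaining class. Satellite 2 had a median ratio of 0.985 over 106 matched loci, with 69 loci broader in control and 36 broader in ERCC6L2-/- cells, and 93 of its 107 loci were wide in both.

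Some of the longest blocks were divided differently in the 2 lists. On chromosome 21 each list had 2 peaks over the same block, with the break at another place. The control peaks measured 16587 bases (chr21:10651820-10668406) and 69500 bases (chr21:10668735-10738234), and the ERCC6L2-/- peaks 43053 bases (chr21:10651826-10694878) and 42652 bases (chr21:10695585-10738236), so that 86087 and 85705 bases were covered in all. On chromosome Y the control list had 2 peaks with 49922 bases in all where the ERCC6L2-/- list had 1 peak of 50159 bases (chrY:10744222-10794380). On chromosome 4 both lists had a single peak, of 59738 bases in control (chr4:49091333-49151070) and 59937 bases in ERCC6L2-/- cells (chr4:49091334-49151270), with starts 1 base apart. Peaks of 42675 and 42656 bases on chromosome 10 (control chr10:41873287-41915961) were close in width as well. The other widest control peaks on assembled chromosomes were of 36352 bases on chromosome 10, 35451 and 32713 bases on chromosome Y, 31665 and 28464 bases on chromosome 17 and 27330 bases on chromosome 21, and their widest ERCC6L2-/- partners measured 36056, 35429, 41603, 26302, 28534 and 27315 bases in that order. Over the whole locus of the 32713-base peak the control list covered 40589 bases with 2 peaks, against 41603 with 1 in ERCC6L2-/- cells, and at the 31665-base peak the ERCC6L2-/- list covered 29530 bases with 2 peaks. All of these peaks were satellite 3 and all were at the score ceiling.

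Alpha-satellite had the lowest share of loci that were wide in both lists. Of 135 alpha-satellite loci with a wide peak, 54 were wide in both lists, 22 were wide in control and narrower in ERCC6L2-/- cells, 31 were the reverse, 4 had control peaks alone and 24 had ERCC6L2-/- peaks alone. Control peaks covered 397 kb of these loci and ERCC6L2-/- peaks 491 kb. In the 107 loci with peaks of both lists the median ratio was 1.03, with 66 broader in ERCC6L2-/- and 41 broader in control cells. The 24 wide ERCC6L2-/- peaks without a control peak measured 3001 to 5964 bases and lay 3.46 to 56.3 kb from the nearest control peak, with a median of 12.9 kb. A peak of the other list was met by 78.2% of ERCC6L2-/- and 95.1% of control wide peaks of this class. Among alpha-satellite peaks of all widths the shares were 53.8 and 84.1%, so a missing partner was less frequent among wide peaks. Longer peaks have more room for an overlap. The share of alpha-satellite peaks of all widths that were wide was not higher in ERCC6L2-/- cells, at 112 of 1291 (8.68%) against 83 of 824 (10.1%) in control cells.

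**Figure D4:**
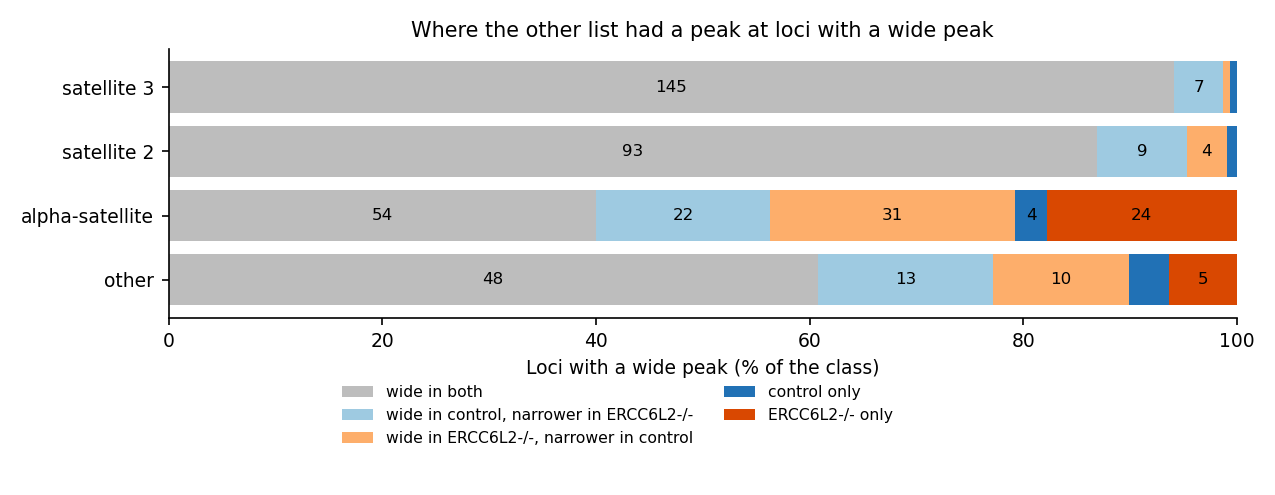
Loci with a wide peak (% of each sequence class) by what both lists held there, with the number of loci written in segments of 4 or more. Satellite 3 was wide in both lists at 145 loci of 154 and alpha-satellite at 54 of 135, with 24 alpha-satellite loci that only the ERCC6L2-/- list held.

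The largest shifts in width lay in alpha-satellite of chromosome 12. At chr12:35570214-35574637 the control peak covered 4424 bases and the ERCC6L2-/- peak 427, the lowest ratio of all matched loci (0.0965). At chr12:36885924-36888923 the control peak covered 955 bases and the ERCC6L2-/- peak 3000, the highest ratio (3.14), with a width that only just passed the limit. Another locus of the same array, starting at base 35804746, covered 1645 bases in control and 4268 in ERCC6L2-/- cells. The next lowest ratio was at chr7:59013257-59016375, with 3119 bases against 783. On chromosome 11 a locus that starts at base 53333882 covered 1599 bases in control and 3894 in ERCC6L2-/- cells. Loci of satellite 3 were among the 5 lowest ratios as well, with 3825 against 1124 bases at base 31197882 of chromosome 20, 4055 against 1323 at base 26668795 of chromosome Y, and 4911 against 1630 on an unlocalised contig of chromosome 17. The 5 highest ratios were completed by loci of the remaining class, with 2095 against 5394 bases on chromosome 17 and 1637 against 4276 on an unplaced contig.

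By chromosome, wide alpha-satellite peaks were most frequent on 12, 7, 11, 10 and 20. Chromosome 12 had 25 in control and 29 in ERCC6L2-/- cells, chromosome 7 had 13 and 21, and chromosome 11 had 11 and 21. Chromosome 10 had 13 in each list, and on chromosome 20 the order was reversed with 11 and 8. The 11 control peaks include one at chr20:48513448-48516532, far from the others, which end by base 28842162. It is counted by its place in a run. How far the peaks of a chromosome shared a leading unit differed between chromosomes. Units of 1357 to 1359 bases led in 8 of 26 peaks on chromosome 10, and units of 1359 to 1361 bases in 9 of 19 on chromosome 20. On chromosome 11 a unit of 850 bases led in 29 of 32 peaks, with a median identity of 98.3% between neighbouring units. On chromosome 7 a unit near 1022 bases led in 27 of 34 peaks with 89.1% identity, and on chromosome 12 units of 1355 to 1360 bases led in 27 of 54 peaks with 78.4%, while a unit of 340 bases led in 23. The CENP-B box, searched on both strands as TTCG, 4 free bases, A, 2 free bases and CGGG, was present in 79 of 81 control peaks (97.5%) and 106 of 110 ERCC6L2-/- peaks (96.4%) of this class, at 2.50 and 2.45 boxes per kb. Among satellite 3 wide peaks 1 in each list held it, and in satellite 2 none of 107 and 102 did, which allows shares of up to 3.47 and 3.63% (upper Wilson bounds). On chromosome 2, 3 ERCC6L2-/- peaks lay inside a run without holding a box, and a 4-base unit of 66.5% median GC led in them, so that they are counted here by position only.

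**Figure D5:**
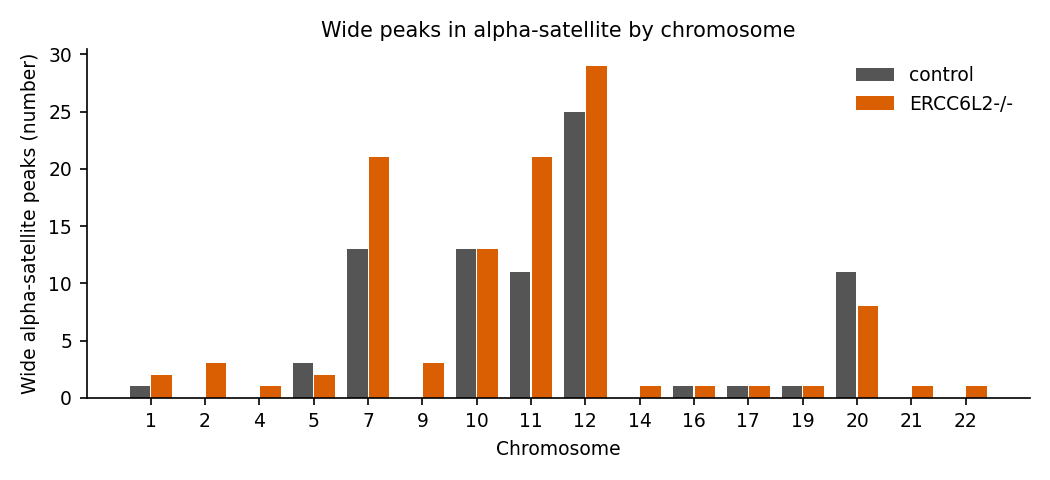
Number of wide peaks in alpha-satellite by chromosome in the control list (grey) and the ERCC6L2-/- list (orange). Chromosomes 7 and 11 had 13 and 11 in control and 21 each in ERCC6L2-/- cells, chromosome 10 had 13 in each list, and chromosome 20 had 11 and 8. Alpha-satellite peaks of all widths numbered 94 and 134 on chromosome 7 and 48 and 97 on chromosome 11.

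Widest among the peaks found in 1 list alone were alpha-satellite peaks of chromosome 11 in ERCC6L2-/- cells, with 5964 bases at chr11:52082402-52088365 and 5036 bases at chr11:51186831-51191866. A pair of minisatellite peaks with a 16-base unit, of 4868 and 4703 bases on an alternate contig of chromosome 4, and a peak of 4570 bases at chr15:101757369-101761938 followed. In control cells the widest such peak was satellite 2, with 4481 bases at chr16:34950592-34955072, and an ERCC6L2-/- peak lay 0.673 kb away. The others of the first 5 were alpha-satellite of chromosomes 12, 20 and 7, with 3639, 3506 and 3496 bases, and satellite 3 on an unlocalised contig of chromosome 17, with 3532 bases. Of the alpha-satellite wide peaks without a partner, none of 4 in control and 6 of 24 in ERCC6L2-/- cells were at the score ceiling. In the remaining class 1 of 3 and 1 of 5 were, and the control peaks of satellite 2 and satellite 3 were not. The ceiling was reached by 59.3 and 62.7% of all wide alpha-satellite peaks and by 71.4 and 61.7% of all peaks.

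The satellites lay close to alpha-satellite runs, and distance to the centromere itself was not measured. On assembled chromosomes the median distance from a control wide peak to the nearest alpha-satellite run was 0.230 Mb for satellite 3 and 0.0892 Mb for satellite 2, and 93.4% (87.5 to 96.6%) and 87.1% (78.3 to 92.6%) of them lay within 5 Mb of one, where 33.5% of all control peaks did. In ERCC6L2-/- cells the shares were 95.4 and 85.9%, where 41.0% of all peaks did. Wide peaks of the remaining class lay near chromosome ends more often than all peaks did. Within 5 Mb of an end were 28 of 48 in control (58.3%, 44.3 to 71.2%) and 24 of 44 in ERCC6L2-/- cells (54.5%, 40.1 to 68.3%), against 21.7 and 23.3% of all peaks. Within 5 Mb of an alpha-satellite run were 52.1% (38.3 to 65.5%) and 54.5% (40.1 to 68.3%) of them, against the 33.5 and 41.0% of all peaks. The interval of the ERCC6L2-/- list takes in the share of all its peaks. Over both lists together the reference chromosome Y held most wide peaks, 42 in control and 38 in ERCC6L2-/- cells, all satellite 3. Whether the cells hold this chromosome was not tested. Chromosome 16 followed with 42 and 36, chromosome 7 with 35 and 43 and chromosome 10 with 41 and 35. In the ERCC6L2-/- list alone chromosome 7 held most. Chromosome 16 was mainly satellite 2, with 36 peaks and 189 kb in control against 30 peaks and 156 kb in ERCC6L2-/- cells. On chromosome 17 satellite 3 covered 216 kb in each list.

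Wide peaks stood in dense groups. Chained over gaps of up to 100 kb, they formed 165 groups in each list, of which 108 and 104 were single peaks. On chromosome Y, 20 control and 19 ERCC6L2-/- wide peaks filled 72.3% of chrY:10626633-11040867. On chromosome 16, 21 control and 17 ERCC6L2-/- satellite 2 peaks stood between bases 34451024 and 34962303. An unlocalised contig of chromosome 17 held 22 and 19 wide peaks of satellites 2 and 3 over about its first 280 kb.

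Outside the satellites the wide peaks were mostly tandem repeats rich in GC. The 64 control and 63 ERCC6L2-/- peaks of this class lay in 79 loci, of which 48 were wide in both lists. Their median GC content was 54.0 and 57.0%, against 39.5 and 39.6% in satellite 3 and 38.8% in alpha-satellite of both lists. Over all peaks it was 48.8 and 49.0%. In 85.9 and 82.5% of this class the sequence was at least 60% identical to itself some unit further on. The same held for 72.9 and 77.6% of peaks of 2 to 3 kb and for 40.8 and 50.8% of all peaks. A 26-base unit of 66.3 to 67.2% GC in control peaks recurred on chromosomes 15, 16 and 22 and on a contig of chromosome 1. Units of 46 bases on chromosome 17, with 99.3% identity, and 77 bases on chromosome 6, with 89.8%, were examples of long arrays, and the latter measured 5104 bases in control and 5125 in ERCC6L2-/- cells.

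Wide peaks seldom met genes, and where they did it was mostly in this class. Of the wide satellite and alpha-satellite peaks on assembled chromosomes, 4 of 286 in control (1.40%, 0.545 to 3.54%) and 2 of 296 in ERCC6L2-/- cells (0.676%, 0.185 to 2.43%) overlapped an annotated gene. In the remaining class 25 of 48 (52.1%, 38.3 to 65.5%) and 25 of 45 (55.6%, 41.2 to 69.1%) did, against 55.9 and 51.4% of peaks under 3 kb. Exons were touched by 2 control (0.599%) and 5 ERCC6L2-/- wide peaks (1.47%), against 7.72 and 6.88% of all peaks. Protein-coding genes were met by 6.59 and 5.28% of wide peaks, against 40.7 and 37.4% of all peaks. The wide peaks overlapped 21 protein-coding genes in control and 20 in ERCC6L2-/- cells.

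Coding sequence lay under few of them. EPPK1, which codes for the cytoskeletal linker epiplakin, held a peak of 6609 bases in control and 8113 bases in ERCC6L2-/- cells, both wholly exonic, with a repeated unit of 1602 bases. HRNR, which codes for hornerin of the cornified skin envelope, held a wholly exonic peak of 3184 bases in ERCC6L2-/- cells (chr1:152213827-152217010) over a 1410-base unit of 99.3% identity, and its control peak measured 2710 bases. On the mitochondrial genome an ERCC6L2-/- peak of 3368 bases (chrM:13061-16428) took in MT-ND6 and MT-CYB, subunits of respiratory complexes I and III, and part of MT-ND5, where the widest control peak measured 2663 bases.

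Introns of genes with varied roles held the others. BRF1, a subunit of the RNA polymerase III initiation factor, had peaks of 4107 bases in control and 4616 in ERCC6L2-/- cells over its 102-base unit. ADARB2, of the adenosine deaminase family that edits RNA, had 3673 and 4015 bases, and the peak also lies in LINC00200. NKD2, an inhibitor of Wnt signalling, had 3341 and 4076 bases. TMEM242 had 3928 and 3931 bases and DUX4, a germline transcription factor encoded in a subtelomeric repeat, 3677 and 3830 bases. GALNT9, a glycosyltransferase, held a peak of 3399 bases in control and 3121 in ERCC6L2-/- cells, and a second one of 4126 bases in control, of which 24.3% was N, an assembly gap of the reference, where the ERCC6L2-/- peak measured 1933. In TAFA5, PLXNA4, which codes for a semaphorin receptor, CFAP46, a protein of cilia, and TMEM114 the peaks measured 3613, 3026, 4381 and 3304 bases in control against 3206, 3067, 4082 and 3045 in ERCC6L2-/- cells. CHCHD6, of the mitochondrial cristae complex, had 3955 and 3291 bases, BFSP2, a lens filament protein, 3559 and 3304, and GSE1 3131 and 5684.

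Peaks that were wide in control cells alone lay in CFAP61 and SPPL2B, where they measured 3271 and 3307 bases against 2637 and 2776 in ERCC6L2-/- cells. In ANKDD1A a control peak of 3040 bases stood against 2 ERCC6L2-/- peaks that covered 2369 bases. The control peak of 3384 bases in ECSCR and the overlapping ENSG00000279686 held a gap of the reference, which left 2384 known bases, and the ERCC6L2-/- peak measured 2402. Gaps lay in 34 control and 32 ERCC6L2-/- wide peaks, most of them satellite 3, and took the known bases under 3000 in 4 and 2. ENSG00000286001 had 3445 bases in control and no ERCC6L2-/- peak. NSUN6, a transfer RNA methyltransferase, was the only protein-coding gene with wide satellite 3 peaks in its introns, both in control cells. At the first a control peak of 4167 bases stood against 2913 in ERCC6L2-/- cells. The second, of 4178 bases, lay in a locus with 2 peaks in each list, where control peaks covered 4688 and ERCC6L2-/- peaks 5383 bases. Peaks wide in ERCC6L2-/- cells alone lay in TTC34, with 3797 against 1866 bases, and in SPATC1, where a peak of 4612 bases stood against 2 control peaks that covered 4292. Of the gene families set out for their tandem or duplicated copies, DUX4 was met by 1 of 42 annotated genes in each list. Of 2294 genes with LINC symbols, 1 was met in control and 2 in ERCC6L2-/- cells. LINC00200 was met in both lists, and LINC01667, annotated as a transcribed processed pseudogene, in the ERCC6L2-/- list. None of the other families was met, among them NBPF (24 genes), GOLGA8 (23), POTE (16), TSPY (31), RNA5S (521) and RNU6 (1319). The RNA45S, RNA28S, RNA18S and MTRNR2L symbols are absent from the annotation used here.

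Purine tracts were scarce in wide peaks. Stretches of 30 or more purines, or of as many pyrimidines, occurred in 4 control (0.948%, 0.369 to 2.41%) and 3 ERCC6L2-/- wide peaks (0.696%, 0.237 to 2.03%), although longer peaks have more room for one, against 34.5 and 25.7% of peaks under 1 kb. The share fell with width, to 10.6 and 6.44% at 1 to 2 kb and 5.10 and 2.87% at 2 to 3 kb. Over all peaks it was 27.2 and 18.8%. Per 100 kb of peak sequence there were 3.12 and 1.91 tracts in wide peaks and 170 and 137 in peaks under 1 kb. At 2 to 3 kb there were 8.69 and 4.83. The score, which is the −log10 of the merged p-value, was at its ceiling in 382 control (88.6%, 85.3 to 91.3%) and 387 ERCC6L2-/- wide peaks (88.2%, 84.8 to 90.9%), against 69.7 and 65.5% at 2 to 3 kb. By class the ceiling was reached by 98.2 and 99.4% of satellite 3, 96.3 and 98.0% of satellite 2 and 59.3 and 62.7% of alpha-satellite wide peaks. Width and score come from the same peak calls, so these shares are a description.

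At the limit of 3000 bases, the 5 control peaks just inside measured 3007, 3009, 3011, 3012 and 3018 bases and the 5 just outside 2984, 2990, 2994, 2996 and 2998. In the ERCC6L2-/- list those inside measured 3000, 3001, 3014, 3028 and 3028 bases and those outside 2990, 2991, 2991, 2994 and 2995. Classes were mixed on both sides. ERCC6L2 itself (chr9:95871264-96121154) held 1 peak in each list, which says nothing about the knockout.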

How the data were processed

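Nascent DNA of 6 U2OS samples, 3 control and 3 ERCC6L2-/-, was sequenced. Per the authors' methods, TrimGalore trimmed the reads, BOWTIE2 placed them on hg38 (UCSC, patch 12) and Picard removed duplicates before peaks were called in each sample with MACS2 and merged by genotype with MSPC. How reads with several equal placements were handled is not given in the sources used here, and reads of other copies may count towards a peak in an array. The deposited consensus lists give starts, ends and −log10 p-values, written as infinite above 310.6. The lists of unique peaks were not used here. Neither kind of list holds read counts, so depth is unknown.

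Members and lists were chosen with earlier results of these data known. Peaks were read from hg38 (pysam 0.24.0, samtools 1.23.1), and 105 control and 89 ERCC6L2-/- peaks on contigs outside it were left out of sequence shares. Satellites 2 and 3 had at least 15% of bases in GGAAT, and satellite 3 at least 50% identity 5 bases downstream. Alpha-satellite runs were 1 kb windows with at least 50% identity near 1 or 2 monomer lengths downstream, low in GGAAT, joined over 10 kb, of at least 10 kb (229 runs). The plan named 1 monomer length only, which missed arrays of paired monomers. It was replaced after the data were seen and is given as an alternative. Units were sought from 2 to 2500 bases, as the shortest within 2 percentage points of the best identity. Overlaps used bedtools 2.31.1 and GENCODE 44, on chromosomes 1 to 22, X, Y and M for genes, and Wilson intervals scipy 1.17.1. No test was made. Peaks named were the 10 widest, the 5 widest without a partner, the 5 highest and lowest ratios, the 3 largest groups, the 5 on each side of the limit, and all protein-coding genes met. The rules for classes and pairing were run on simulated data with planted repeats, GGAAT among them. Alpha-satellite was marked in advance there, so the finding of runs was not tested.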

Additional observations from a re-analysis of the deposited data

How the results depend on the processing

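No paired analysis was possible because each list is merged over its 3 replicates, and for the same reason no replicate could be left out. Values are for control and ERCC6L2-/- peaks in that order, and 104 of the values recomputed under other settings stayed within the 95% interval of the reported one while 62 did not. With a limit of 2000, 2500, 4000 and 5000 bases, the share of wide peaks was 8.62 and 11.3%, 5.72 and 7.42%, 2.54 and 3.03%, and 1.83 and 2.03%, and on chromosomes 1 to 22 and X alone it was 3.03 and 3.80%. A partner of any width was found for 87.5 and 85.9% of wide peaks by a reciprocal overlap of 50%, for 95.9 and 86.7% at 2000 bases, for 99.6 and 96.9% at 4000 bases, and for 98.5% of ERCC6L2-/- peaks outside alpha-satellite. A wide partner was found for 79.8 and 78.4% by reciprocal overlap, 81.7 and 75.3% at 2000 bases, and 77.5% of ERCC6L2-/- peaks on chromosomes 1 to 22 and X. Outside alpha-satellite it was 89.9 and 93.9%, which turns the order of the lists. The median ratio was 0.996 over loci with a wide control peak and 1.00128 over loci with a wide ERCC6L2-/- peak, on both sides of 1, and 0.999 to 0.9997 with each chromosome left out.

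Alpha-satellite was touched by 68.2 and 71.2% of wide peaks with runs widened by 1 Mb, 28.1 and 36.8% on chromosomes 1 to 22 and X, 31.9 and 39.0% with neighbours chained at 10 kb, 29.8 and 40.4% at 2000 bases, 9.80 and 14.2% at 4000 bases, and 10.2 and 16.01% with 1 monomer length, the planned definition, in whose place the one used here was taken after seeing the data. With each chromosome left out, it was 14.7 to 21.8% and 20.8 to 28.5%, lowest without chromosome 12 in both lists. The ERCC6L2-/- share was the higher in each of these settings. Satellites 2 and 3, whose settings were added after seeing the data, held 39.1 and 33.9% at 2000 bases, 83.1 and 76.3% at 4000 bases, 56.2 and 49.3% on chromosomes 1 to 22 and X, and 41.5 and 37.5% chained. Genes were met by 0.599 and 1.47% for exons, 14.3 and 12.4% chained, 5.28% of ERCC6L2-/- peaks for protein-coding genes and 11.7% outside alpha-satellite. A tract of 20 bases occurred in 5.92 and 5.80%. The score ceiling was reached by 95.4 and 96.6% outside alpha-satellite, 78.9 and 75.8% at 2000 bases and 96.2 and 96.1% at 4000 bases. Depth is unknown, and the number of peaks limits the precision.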

Other observations

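All wide peaks of chromosome Y were satellite 3, and little of their sequence recurred elsewhere in the reference. A median of 1.48% of the 50-base words of the 42 control peaks, and 1.43% of those of the 38 ERCC6L2-/- peaks, occurred on any other contig, with a highest value of 7.16 and 7.08% for a single peak, and the median word had 1 copy in the reference. These peaks covered 485 and 479 kb, from base 10626633 to 56837014 in control cells and from 10626717 to 56836968 in ERCC6L2-/- cells. All of these are places in the reference. From which chromosome the reads came, and whether the cells hold a chromosome Y, was not tested.

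Many wide peaks lay outside the assembled chromosomes. Unlocalised contigs held 49 in each list, unplaced contigs 24 in control and 27 in ERCC6L2-/- cells, alternate contigs 15 and 14, and fix patches 9 and 8.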
